A study of Homo sapiens with 21 samples.

Results

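The libraries labelled shARID1B.2 were compared with the libraries labelled Control in SK-N-BE(2), a human neuroblastoma cell line of adrenergic type with amplified MYCN. All 3 libraries of each label were taken, which is 6 of the 21 libraries of the series, and every gene of the deposited table was considered. Cells of both conditions carried lentiviral particles made in HEK293T cells and were harvested for RNA 72 h after transduction, in biological triplicates. Control cells received a non-silencing shRNA and the others 1 shRNA that the label names for ARID1B, so that the effect of lowering a target and any other effect of that hairpin cannot be told apart. The 3 libraries labelled shARID1B.3, made with the other single hairpin of the same name, served for a direct comparison. All values come from 1 cell line at 1 time after transduction, and nothing in the sources used here states when each triplicate was transduced.

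ARID1A and ARID1B are large, alternative subunits of the BAF complex, a chromatin remodeller that uses ATP to move nucleosomes and open regulatory DNA. A BAF complex holds either ARID1A or ARID1B, and the related PBAF and ncBAF complexes hold neither. In neuroblastoma, an embryonal tumour of the sympathetic lineage, BAF acts at enhancers next to lineage transcription factors such as HAND2 and GATA3.

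The gene in the label was hardly lower, whereas its paralogue was. ARID1A (ENSG00000117713.20, GRCh38 chr1:26693236-26782110, plus strand) had normalised read counts of 6097, 6374 and 6463 in the Control libraries and of 1962, 1882 and 1916 in the libraries labelled shARID1B.2. It fell by 1.72 on the log2 scale (SE 0.029, limma adjusted p = 4.08e-24), or 3.28-fold. ARID1B (ENSG00000049618.24, chr6:156776020-157210779, plus strand) stood at 5793, 5804 and 5791 in Control and at 5056, 4913 and 5043 in the libraries labelled shARID1B.2. Neither gene's ranges overlapped between the conditions, but ARID1B fell by only 0.21 (SE 0.023, limma adjusted p = 1.45e-08), or 1.16-fold, and by 0.08 when libraries were scaled to their total reads. The label is therefore contradicted by the targeted genes, and "labelled shARID1B.2" is used below only as the name of these libraries. All directions below are those of the libraries with this label, whose main targeted change was in ARID1A.

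**Figure D1:**
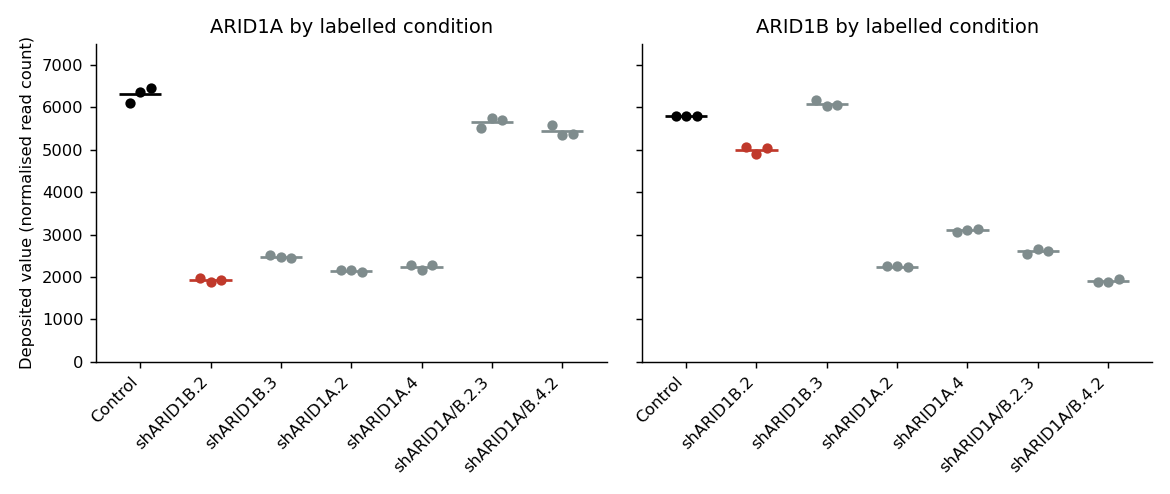
Normalised read counts of ARID1A (left) and ARID1B (right) in each library of the 7 labelled conditions, with the mean as a bar. The libraries labelled shARID1B.2 (red) sat at 1882 to 1962 for ARID1A and at 4913 to 5056 for ARID1B, against 6097 to 6463 and 5791 to 5804 in Control (black).

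The other labelled conditions are given here for these genes, and below only beside some further genes and sequence words. Mean ARID1A was 2479 in the libraries labelled shARID1B.3, 2146 in shARID1A.2 and 2243 in shARID1A.4, and 5659 and 5440 in shARID1A/B.2.3 and shARID1A/B.4.2. Mean ARID1B was 6091 in the libraries labelled shARID1B.3, 2241 in shARID1A.2, 3100 in shARID1A.4, 2599 in shARID1A/B.2.3 and 1907 in shARID1A/B.4.2. Both conditions labelled for ARID1B alone thus had low ARID1A and little or no lowering of ARID1B, those labelled for both genes had low ARID1B and ARID1A near Control, and those labelled for ARID1A alone had both low. Whether labels were exchanged between conditions was not tested and cannot be settled from these values, so the hairpin behind the libraries labelled shARID1B.2 is known only by its label. The conditions share the Control libraries.

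Depth was similar in both conditions, at 30579746 to 34973565 recovered reads in Control and 27954334 to 37489242 in the libraries labelled shARID1B.2. Replicates were close, with a median SD of 0.044 on the log2 scale in each condition over the 12412 genes with a mean of at least 100. The first principal component over all 21 libraries held 35.9% of the variance. On it the libraries labelled shARID1B.2 lay at 26.5 to 27.4, Control at -21.5 to -19.1 and shARID1B.3 at -20.56 to -19.48. On the second (19.2%) the libraries labelled shARID1B.2 lay at 17.51 to 18.72, Control at 62.53 to 66 and shARID1B.3 at 31.25 to 32.36. Protein-coding genes held 96.5% to 96.6% of the reads in the libraries labelled shARID1B.2 and 97.2% to 97.3% in Control, and 24278 to 25096 against 23507 to 24102 genes had a read. The part of these small differences in the results was not tested.

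With replicates this close, 65.6% of the 18584 tested genes passed an adjusted p of 0.05, 34.0% lower and 31.6% higher in the libraries labelled shARID1B.2. These shares are the background for every count of a gene group, except where scaling to total reads is named. At least 2-fold lower were 952 genes (5.12%), and 1274 (6.86%) were at least 2-fold higher. The median log2 fold change over all tested genes was 0.01. Scaling the libraries to their total reads moved this median up by 0.135 and upper-quartile scaling by 0.117. This lowered the share of lower genes among all calls from 51.9% to 37.0% and 38.8%. With scaling to total reads 4632 of the 18584 tested genes were lower and 7891 higher, the background for counts with that scaling. Small changes in either direction are therefore relative to the authors' size factors, and weight is given below to groups and genes that changed by more than this shift. As RNA is from whole cultures, fewer cells of a type and less RNA per cell cannot be told apart.

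**Figure D2:**
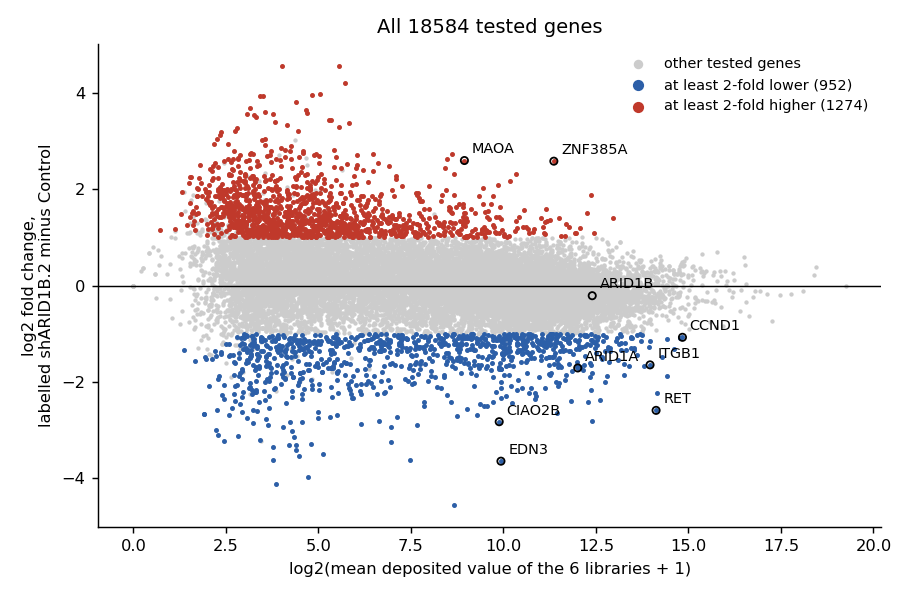
Log2 fold change of every tested gene (labelled shARID1B.2 minus Control) against the log2 mean of the 6 libraries plus 1. Blue points are the 952 genes called at least 2-fold lower and red points the 1274 called at least 2-fold higher, with 9 genes circled. High-expressed genes past 2-fold were mostly lower.

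The cultures had the expression of the labelled cell line. All 11 neuroblastoma markers were present, with summed normalised read counts of 214519 to 219857 in Control and 144066 to 152077 in the libraries labelled shARID1B.2. Of these markers 8 fell and 1 rose, with a median log2 fold change of -0.72. GAP43, a growth-cone protein, was at 3237, 2990 and 3123 in Control and at 627, 594 and 586 in the libraries labelled shARID1B.2, and fell by 2.37 (limma adjusted p = 4.82e-25). Of the 8 fibroblast markers 4 fell and 2 rose, and COL1A1, the main collagen chain of connective tissue, had 12727 to 13040 in Control and 12194 to 13319 in the libraries labelled shARID1B.2. Their sum was 44775 to 45215 in Control and 40470 to 42144 in the libraries labelled shARID1B.2, and their part in the results was not tested. The other lists were near 0 by comparison, with 1 Schwann and 2 blood and endothelial markers at 0 in all 6 libraries and summed counts of at most 249 for Schwann, 228 for epithelial and 516 for blood and endothelial markers.

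Among the 30 BAF, PBAF and ncBAF subunits, 12 fell and 11 rose, with a median log2 fold change of -0.02. These shares were not far from those of all tested genes (34.0% lower and 31.6% higher). With scaling to total reads 7 subunits were lower and 16 higher, with a median of 0.11. Apart from ARID1A, no subunit fell by 2-fold. SMARCC1, a core scaffold shared by all the complexes, was at 9985, 10042 and 10303 in Control and at 5469, 5140 and 5187 in the libraries labelled shARID1B.2, and fell by 0.94 (SE 0.024, limma adjusted p = 9.98e-21). The neural plant-homeodomain subunits DPF1 (-0.94) and DPF3 (-0.66) fell as well. SMARCD3, an accessory subunit of muscle and nerve cells, rose from a mean of 414 to 829, just under the 2-fold limit. The ATPase SMARCA2 rose by 0.24 and SS18 by 0.59 on the log2 scale.

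The 15 largest falls among the 1155 genes that passed 2-fold, a mean of 50 and separation of all replicates held several secreted and membrane proteins. TMEM108-AS1, an antisense long non-coding RNA, went from 741 to 813 in Control to 20.4 to 45.1 in the libraries labelled shARID1B.2 (log2 fold change -4.56, SE 0.271). EDN3, the endothelin ligand that acts on neural crest cells, went from 1855, 1751 and 1822 to 148, 138 and 142 (-3.66, SE 0.163). The ranges were far apart for both genes, and their means were also low in the other 5 silenced conditions, at 8.07 to 72.4 for TMEM108-AS1 and 38.2 to 323 for EDN3, against the shared Control libraries.

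The other 13 ranged from -3.63 to -2.72. They were IGHM (-3.63, immunoglobulin heavy chain), AC005670.2 (-3.51), FFAR3 (-3.27, a receptor for short-chain fatty acids), MALL (-2.94), MMP1 (-2.90, a collagenase), LOXHD1 (-2.88), CIAO2B (-2.83, of cytosolic iron-sulphur assembly), FAM30A (-2.81), AC064875.1 (-2.81), LPAR5 (-2.76, a lysophosphatidic acid receptor), LINC02623 (-2.74), LMNTD1 (-2.73) and PI15 (-2.72). FAM30A was the most abundant of them, at 8991 to 9616 in Control and 1210 to 1423 in the libraries labelled shARID1B.2. AC005670.2 rested on variable values, with 5.25, 0 and 20.4 in the libraries labelled shARID1B.2 and an SE of 1.132, and it lost its call with DESeq2 and without shARID1B.2 replicate 2.

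For CIAO2B the replicates were close together. Its values were 1689, 1670 and 1612 in Control and 228, 223 and 243 in the libraries labelled shARID1B.2, a fall of 2.83 (SE 0.046, limma adjusted p = 1.73e-24). Its means were 258 in the libraries labelled shARID1A.2 and 1313 to 1841 in the other 4 silenced conditions, which share the Control libraries.

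The 15 largest rises were mostly of genes with little RNA in Control. H2AC18, a replication-linked histone H2A gene with a near-identical copy, was at 0, 0 and 34.9 in Control and at 103, 47.5 and 92.5 in the libraries labelled shARID1B.2. Its log2 fold change of 4.56 (SE 1.106) is uncertain, since reads may be split with the copy, and DESeq2 did not call it. LINC01522 (3.45), PRLR (3.45, the prolactin receptor), CDH7 (3.39, a cadherin of migrating neural crest), MISP (3.29, an actin-binding mitotic protein) and RP1L1 (2.82) had Control means of 5.82 to 11.1.

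The remaining 9 were MINAR1 (2.75), FCMR (2.74), MAF (2.72, a leucine-zipper transcription factor), AC107398.3 (2.72), AC209154.1 (2.69), GABRB1 (2.67, a GABA-A receptor subunit), CGNL1 (2.64, a tight-junction protein), MAOA (2.60, which degrades catecholamines) and ZNF385A (2.59, a zinc-finger protein that binds RNA). MAOA rose from 143, 135 and 137 to 853, 847 and 833. ZNF385A rose from 740, 739 and 771 to 4487, 4536 and 4511 (SE 0.033, limma adjusted p = 2.43e-26). Its Control mean of 750 was the highest of the 15.

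Genes of the cell division cycle fell broadly but modestly. Of 40 DNA replication genes 37 fell and 2 rose, with a median of -0.54, and of 40 mitotic genes 36 fell and 2 rose, with a median of -0.48. These medians were -0.40 and -0.34 with scaling to total reads, which left 33 lower in each list. PCNA, the sliding clamp of DNA polymerases, was at 10524, 10442 and 10212 in Control and at 4159, 4221 and 4172 in the libraries labelled shARID1B.2 (log2 fold change -1.31, SE 0.026). RRM2, the regulated subunit of ribonucleotide reductase, went from 11707, 11715 and 11618 to 5239, 5207 and 5237 (-1.16), and the checkpoint adaptor CLSPN fell by 1.09. Other replication genes fell by less than 2-fold, among them CDC6 (-0.97, helicase loading), FEN1 (-0.91, flap endonuclease) and MCM2 (-0.65, replicative helicase).

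No gene of the mitotic list was called changed by 2-fold. CDCA8 (-0.92, chromosomal passenger complex), AURKA (-0.84, a spindle kinase), ANLN (-0.75, cytokinesis), CDK1 (-0.65) and TOP2A (-0.64) were among those that fell, and SPC24, a kinetochore protein, rose by 0.63.

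Regulators upstream of S phase fell too. Among 11 tested G1 cyclins, kinases and RB proteins 9 fell and 1 rose (median -0.43). CCND1, cyclin D1, stood at 39766, 39681 and 39770 in Control and at 18270, 19129 and 19087 in the libraries labelled shARID1B.2, a fall of 1.08 (SE 0.029, limma adjusted p = 3.59e-20). CCNE2 fell by 1.27, CDK6 by 0.34 and CDK4 by 0.30, RB1, the pocket protein that restrains E2F, fell by 0.74, and CCNE1 rose by 0.51. Of the 10 E2F and partner factors 8 fell and 2 rose (median -0.47), with E2F1, an activator, at -0.63 and E2F4, a repressor, at 0.33.

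The inhibitors of cyclin-dependent kinases did not rise. Of 7 tested, 5 fell and none passed the test upward (median -0.48). CDKN1A, which encodes p21, was at 139, 135 and 164 in Control and at 49.9, 67.1 and 51.6 in the libraries labelled shARID1B.2 (-1.37, SE 0.138). CDKN1C (p57) fell by 1.13 and CDKN2C (p18) by 0.55. CDKN1B (p27) was at 0.03 on the log2 scale (limma adjusted p = 0.486), but was called higher, at 0.16, with scaling to total reads. With that scaling 3 of the 7 were lower and 1 higher.

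Integrins, the receptors that tie cells to the matrix, were among the most lowered groups. Of 21 tested integrin subunits 11 fell, 7 of them by at least 2-fold, 3 rose and 7 were not called. Their median was -0.69, or -0.56 with scaling to total reads, which left 5 at least 2-fold lower. ITGB1, the beta subunit shared by most integrin pairs, had 24712, 23850 and 24032 in Control and 7750, 7673 and 7678 in the libraries labelled shARID1B.2 (-1.65, SE 0.025, limma adjusted p = 7.26e-25). ITGA6, a laminin receptor subunit, went from 585, 590 and 599 to 141, 103 and 122 (-2.28). ITGAV, a subunit of vitronectin receptors, went from 9692, 9164 and 9298 to 3326, 3291 and 3364 (-1.50).

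Both partners of several receptors were therefore lower at once. ITGB3 (-1.49), ITGA9 (-1.32), ITGA2 (-1.08) and ITGA3 (-1.04) complete the 7, and ITGB4 was the 1 subunit at least 2-fold higher, at 1.32 from a Control mean of only 20. ITGB1 and ITGA2 had log2 fold changes of -0.05 and 0.17 in the libraries labelled shARID1B.3, against -1.33 for ITGA6 and -1.78 for ITGAV there.

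Cytoplasmic partners of integrins followed to a smaller degree. Of 25 focal adhesion genes 19 fell, 3 by at least 2-fold, and 2 rose (median -0.33). The 3 were TNS1 (-1.20, tensin), ACTN4 (-1.18, an actin crosslinker) and PXN (-1.01, paxillin), and VCL, vinculin, fell by 0.72. PTK2B, a kinase related to focal adhesion kinase, rose by 1.11 from 141, 132 and 155 to 336, 306 and 284.

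Matrix genes moved in both directions, in shares not far from those of all tested genes (34.0% lower and 31.6% higher). Of 42 tested matrix proteins and crosslinkers 17 fell and 13 rose, 7 and 4 of them by at least 2-fold, and with scaling to total reads 15 were lower and 16 higher, with a median of 0.00 in place of -0.14. TNC, tenascin C, was at 1469, 1447 and 1495 in Control and at 284, 301 and 362 in the libraries labelled shARID1B.2 (-2.22, SE 0.076). LAMC1, the gamma chain of most laminins, went from 16144, 16667 and 16125 to 5083, 5134 and 5089 (-1.68, SE 0.021). LOXL2 (-1.86, a collagen crosslinker) and COL6A3 (-1.34) fell as well.

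Other matrix genes rose, among them SPARC (0.61), COL3A1 (0.71) and COL9A1 (1.42). SPP1, osteopontin, rose by 3.02 but stayed at a low level, with a Control range of 1.03 to 2.35. DCN, the small proteoglycan decorin, rose from 1977, 1941 and 1919 to 4709, 4785 and 4617 (1.27), whereas LUM, lumican, fell by 0.57.

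Of 20 tested cadherins and catenins 10 fell and 5 rose (median -0.24), or 7 and 6 with scaling to total reads (median -0.11). CDH2, the N-cadherin of neural cells, was at 16973, 16874 and 16707 in Control and at 6484, 6910 and 6470 in the libraries labelled shARID1B.2 (-1.35, SE 0.027, limma adjusted p = 8.56e-23). CTNNA2, the neural alpha-catenin, fell by 0.87. In contrast, CDH7 rose as given above and CTNND2, delta-catenin, went from 17.5 to 22.3 to 67.6 to 81.4 (1.92). The abundant cadherin was lower and the rare one higher.

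**Figure D3:**
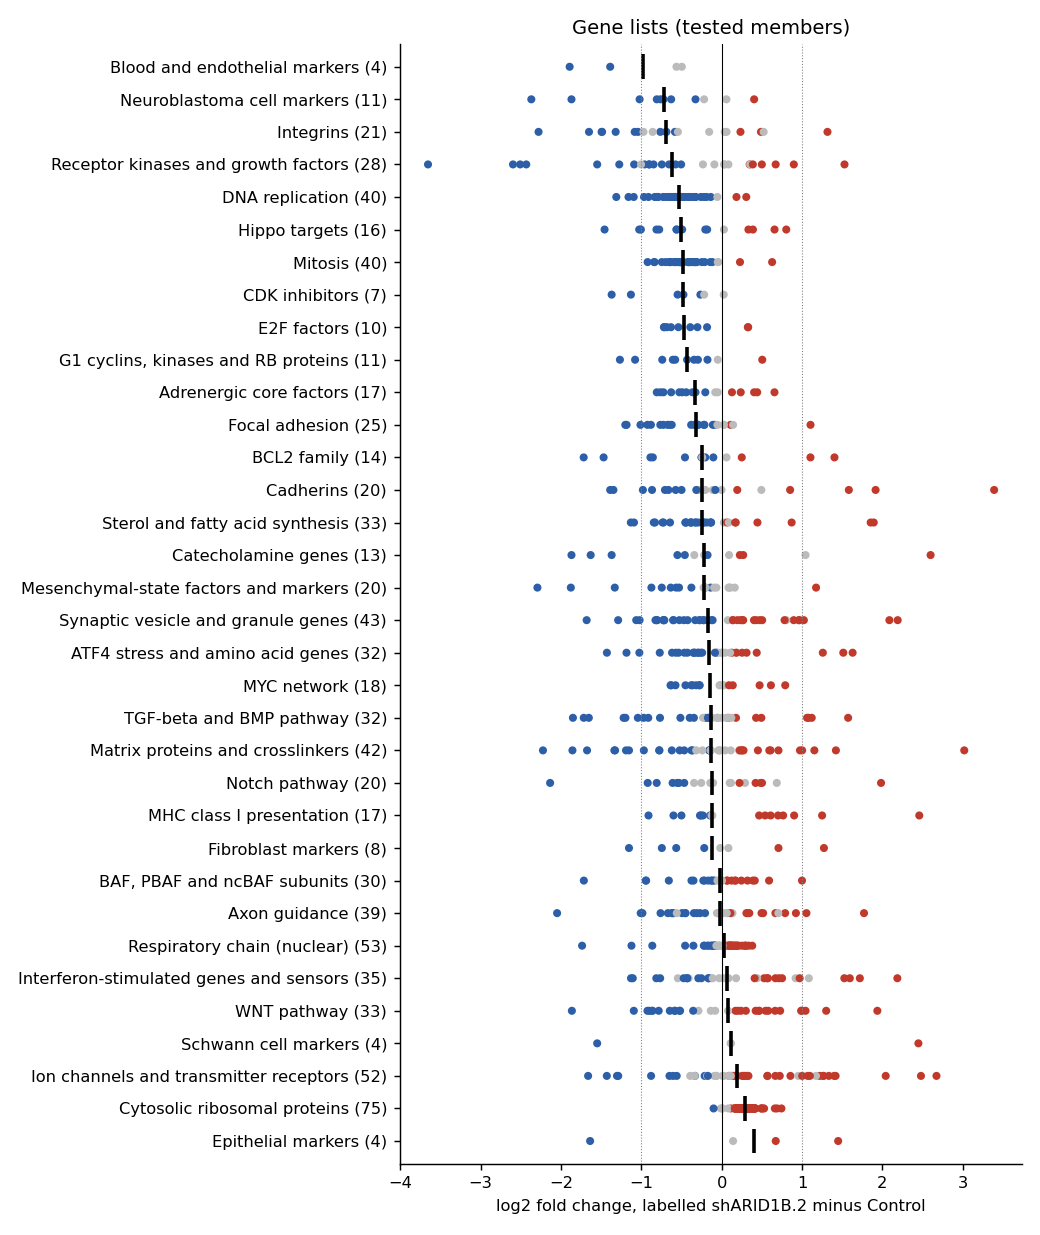
Log2 fold change (labelled shARID1B.2 minus Control) of each tested member of 34 gene lists, with the median of each list as a black bar and the number tested in brackets. Blue points fell, red points rose and grey points were not called at an adjusted p of 0.05, and dotted lines mark 2-fold.

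Factors that set the adrenergic identity of neuroblastoma cells changed by less than 2-fold. Of 17, 10 fell and 5 rose (median -0.33). MYCN had 120355, 123481 and 124192 in Control and 80175, 77312 and 80530 in the libraries labelled shARID1B.2 (-0.63, SE 0.029). The MYC network list had 9 of 18 lower and 5 higher (median -0.15), or 7 and 9 with scaling to total reads (median -0.01). ISL1 fell by 0.76 and HAND2 by 0.33, while GATA3 rose by 0.40.

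Of 20 tested mesenchymal-state factors and markers 11 fell and 1 rose (median -0.22), or 10 and 4 with scaling to total reads (median -0.08). FOSL1, an AP-1 factor of the mesenchymal state, went from 143, 133 and 146 to 41.1, 37.0 and 34.7 (-1.88), RUNX2 fell by 2.29 from a Control mean of 20, and SOX9 fell by 0.75. The 1 that rose was ID1, an inhibitor of helix-loop-helix factors and a direct target of BMP signalling, at 1.18. MAOA, DBH and SLC18A1 were the genes of the catecholamine list with the most change. DBH, which makes noradrenaline, went from 476, 591 and 520 to 139, 131 and 162 (-1.87), and SLC18A1, the vesicular monoamine transporter, from 308, 345 and 312 to 116, 92.6 and 101 (-1.63). CYB561, an electron carrier of the granule membrane, fell by 1.37. Of the 13 tested catecholamine genes 6 fell and 3 rose.

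Ligands and receptor kinases held some of the largest falls. Of 28 tested 15 fell, 7 by at least 2-fold, 6 rose and 7 were not called (median -0.61, or -0.48 with scaling to total reads). RET, the receptor for glial-derived neurotrophic factors, was at 29923, 31384 and 30687 in Control and at 5102, 4949 and 5138 in the libraries labelled shARID1B.2, a fall of 2.60 (SE 0.025, limma adjusted p = 1.49e-28). HGF, the ligand of MET, went from 1218, 1188 and 1229 to 200, 230 and 207 (-2.51).

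The insulin-like growth factor axis was lower at both ends. IGF2 went from 607, 692 and 651 to 125, 105 and 129 (-2.43), and its receptor IGF1R from 10180, 10487 and 10088 to 4232, 4227 and 4243 (-1.27, SE 0.031). FGFR1 fell by 0.85, while ERBB2 rose by 0.90. In the libraries labelled shARID1B.3, IGF2 stood at -0.12 on the log2 scale relative to Control, against -1.71 for RET and -2.13 for HGF.

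Of 39 tested axon guidance genes 15 fell and 11 rose, shares near those of all tested genes, and with scaling to total reads 13 were lower and 19 higher (median -0.02, or 0.12). EPHA4 fell by 2.05 from low counts, NRP1 by 1.01 and its ligand SEMA3A by 0.99. In the Notch list 7 of 20 fell and 5 rose, also not far from the shares of all tested genes. Its median of -0.12 became 0.01 with scaling to total reads. DLK1, a non-canonical ligand of chromaffin precursors, went from 3391, 3800 and 3617 to 820, 773 and 863 (-2.14), and DLL1, a canonical ligand, from 10.3 to 20.0 to 43.8 to 66.7 (1.98).

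The TGF-beta and BMP list held changes of 2-fold in both directions. Of 32 tested 15 fell and 8 rose, 6 and 4 by at least 2-fold, and with scaling to total reads 10 were lower and 12 higher, with a median of -0.00 in place of -0.14. TGFBI, a matrix protein induced by TGF-beta, went from 7866, 7911 and 8069 to 2492, 2629 and 2458 (-1.65), and the co-receptor TGFBR3 fell by 1.85. SMAD6, ID2 and ID3, which BMP signals induce, rose by 1.12, 1.08 and 1.06. BMP2 itself was lower, at 54.2 to 62.5 against 101 to 137 (-1.04).

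WNT genes were divided, with 13 of 33 lower and 16 higher (median 0.08). ROR1, a WNT5A receptor, fell by 1.86 and LGR5, an R-spondin receptor, by 0.86, while the receptor FZD8 rose. Hippo targets fell in 11 of 16 cases and rose in 4 (median -0.50). ANKRD1 fell by 1.46, AMOTL1 by 1.03, TAGLN by 1.01 and CCN2, the matricellular protein also called CTGF, by 0.81.

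Single genes of growth arrest and death changed in both directions. PMAIP1, the BH3-only protein NOXA, was at 675, 602 and 636 in Control and at 191, 198 and 190 in the libraries labelled shARID1B.2 (-1.72). GADD45A (-1.31), CDKN1A and RRM2B fell as well. SESN2, a stress-induced brake on mTORC1, went from 235, 224 and 239 to 718, 733 and 715 (1.63), and BTG2, an antiproliferative factor, rose by 1.42.

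BCL2-family genes fell in 9 of 14 cases and rose in 3 (median -0.25), or 7 and 4 with scaling to total reads (median -0.11). HRK, a sensitiser protein, fell by 1.47 and MCL1, a survival factor, from 10643, 10768 and 10659 to 5872, 5905 and 5931 (-0.86). BMF, a sensitiser that is released from the cytoskeleton, rose from 1083, 1120 and 1227 to 3100, 2968 and 3006 (1.40), and BBC3, the BH3-only protein PUMA, by 1.10.

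Stress and amino acid genes of the ATF4 list fell in 18 of 32 cases and rose in 8 (median -0.16), or 16 and 13 with scaling to total reads (median -0.03). SLC7A5, the large neutral amino acid transporter, went from 7474, 7760 and 7673 to 3197, 3442 and 3441 (-1.19), ATF3 fell by 1.43 and PSAT1, of serine synthesis, by 1.02. DDIT4, another brake on mTORC1, rose from 2564, 2456 and 2662 to 7323, 7219 and 7389 (1.51, SE 0.026).

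Interferon-stimulated genes were lower in 11 of 35 cases and higher in 12, shares near those of all tested genes. With scaling to total reads 8 were lower and 14 higher. The abundant OAS3, which makes the activator of RNase L, fell by 1.11 and OAS1 by 1.13, while IFIT1, a sensor of viral RNA, went from 21.1 to 23.6 in Control to 73.8 to 79.9 (1.72) and MX2 rose by 2.19 from a Control mean of 3. Of the 17 tested genes of MHC class I presentation 7 fell and 8 rose, and the median of -0.12 became 0.01 with scaling to total reads. HLA-E was at 311, 273 and 267 in Control and at 659, 662 and 704 in the libraries labelled shARID1B.2 (1.25), HLA-C rose by 0.90 and HLA-F by 2.46 from 6.16 to 19.0. CALR, the calreticulin chaperone, fell by 0.91. Since reads of related HLA genes may be shared, these values are uncertain.

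Sterol and fatty acid genes fell in 24 of 33 cases and rose in 7 (median -0.24), or 20 and 9 with scaling to total reads (median -0.10). HMGCS1, an early enzyme of cholesterol synthesis, went from 15845, 15356 and 15548 to 7354, 7370 and 7201 (-1.09, SE 0.020), and MSMO1, a late one, fell by 1.13. The exporters ABCA1 and ABCG1 rose by 1.85 and 1.89, ABCG1 from 117, 146 and 144 to 520, 508 and 485. These 2 enzymes and 2 exporters thus changed in opposite directions.

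Of 43 tested synaptic and granule genes 24 fell and 17 rose (median -0.17), or 17 and 18 with scaling to total reads. VGF, a neuropeptide precursor, went from 4416, 4522 and 4669 to 1333, 1382 and 1532 (-1.68), the peptide hormone processor PCSK1 fell by 1.29, GAL, galanin, by 1.06, CHGB by 1.02, SCG2 by 0.80 and CHGA by 0.72. SYT1, the calcium sensor of vesicle release, rose from 2739, 2774 and 2849 to 5267, 5062 and 5250 (0.90), and SYN3 and SYNPR rose by 2.09 and 2.19 from Control means of 18 and 10.

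Ion channels and transmitter receptors, a long list, had the most 2-fold rises by count. Of 52 tested 26 rose, 12 by at least 2-fold, and 11 fell, 4 by at least 2-fold (median 0.19, or 0.32 with scaling to total reads). Over all tested genes 6.86% rose by at least 2-fold, and 18.1% in the lowest of 4 equal bins of mean normalised read count. The part of level in these rises was not tested. SCN3B, an accessory subunit of sodium channels, went from 2098, 2153 and 2065 to 4779, 5052 and 4869 (1.22). CHRNB2, a nicotinic receptor subunit, rose by 1.10. CACNA1G, a T-type calcium channel, rose by 1.33, while CACNA2D2 (-1.29) and SCN4B, both accessory subunits, fell.

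Ribosomal protein genes rose almost uniformly and slightly. Of 75 cytosolic ribosomal protein genes 70 rose and 1 fell, with a median of 0.29, or 0.43 with scaling to total reads, and none changed by 2-fold. RPL28 rose by 0.74, RPLP0 by 0.69 and RPL13A by 0.66. The 1 that fell was RPS7 (-0.10), which was at 0.04 and 0.02 with scaling to total reads and to the upper quartile. Many of these genes have processed pseudogenes, so that single values are uncertain. Nuclear genes of the respiratory chain had a median of 0.03, with 16 of 53 lower and 24 higher, and one of 0.17 with scaling to total reads, with 7 lower and 35 higher. NDUFB3 of complex I went from 1509, 1510 and 1479 to 443, 467 and 438 (-1.74, SE 0.039) and ATP5F1B, the catalytic subunit of ATP synthase, from 30503, 29205 and 30070 to 13808, 13667 and 13750 (-1.12). In the libraries labelled shARID1B.3 these 2 genes had log2 fold changes of 0.24 and 0.01.

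The transcripts were also searched for short sequence words shared by genes that were lower in the libraries labelled shARID1B.2. Small RNAs loaded into Argonaute pair with messenger RNAs mostly through their bases 2 to 8, the seed, and sites for it act mostly in 3′ UTRs. Every 7-base word was counted on the sense strand of the 3′ UTR of the longest coding GENCODE 29 transcript of 11467 genes with a mean of at least 100, and 15869 words were present in, and absent from, at least 100 transcripts each. For each word the mean log2 fold change of transcripts with it was set against that of transcripts without it. This search was added after the data had been examined, its 2 words were chosen on these values, and it is given as a description without a test.

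The 2 words with the lowest difference overlapped by 6 bases. TCTGGTA, in 1122 transcripts (9.78%), had a mean difference of -0.265, and ATCTGGT, in 1247 (10.9%), one of -0.241. The third, CTGGTAA, overlaps the first and had -0.219, while 98% of all words lay between -0.112 and 0.115. At the other end, the highest difference of any word was 0.239, about as large in size. Joined, the 2 words form ATCTGGTA. Transcripts with this 8-base word in the 3′ UTR had a median log2 fold change of -0.36 (n = 296) and 17.2% of them were called at least 2-fold lower, against -0.03 and 3.05% for the 8222 transcripts with neither word in the 3′ UTR or coding sequence.

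The other classes lay between these. Transcripts with 2 or more single words in the 3′ UTR had a median of -0.32 (n = 281), those with 1 word -0.21 (n = 1350) and those with a word in the coding sequence only -0.13 (n = 1318).

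Transcripts with either word had longer 3′ UTRs, with a median of 3241 bases against 1175, so the values were also taken within 4 equal bins of 3′ UTR length. The medians with and without either word were -0.20 and -0.01 in the shortest bin, -0.26 and -0.06 in the second, -0.26 and -0.05 in the third and -0.24 and -0.07 in the longest. By library, the mean difference between transcripts with and without either word was -0.230, -0.246 and -0.245 in those labelled shARID1B.2, and 0.007, -0.002 and -0.005 in the single Control libraries against the Control mean. The words were chosen on the former libraries, and the latter lie near 0 by construction, so that these values show only the spread between libraries.

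The same words were set beside the other conditions, which share the Control libraries. The mean difference of TCTGGTA was -0.240 in the libraries labelled shARID1A.2, where it ranked 17 of 15869 from the lowest, and -0.095, -0.048, -0.083 and -0.085 in shARID1A.4, shARID1B.3, shARID1A/B.2.3 and shARID1A/B.4.2, at ranks of 4130 to 10592. In the direct comparison of the libraries labelled shARID1B.2 with those labelled shARID1B.3, TCTGGTA had the lowest value of all words (-0.217), but this contrast reuses the libraries on which the word was chosen. The highest there was that of ACTCATT (0.283), which was also the lowest word of the libraries labelled shARID1B.3 against Control (-0.373). ACTCATT ranked 3 from the lowest in shARID1A.4 (-0.332). The lowest word against Control was GCATTCA in shARID1A.2 (-0.398) and shARID1A/B.4.2 (-0.445), and CAGGTTA in shARID1A.4 (-0.454) and shARID1A/B.2.3 (-0.45). Each of these lowest words had a larger difference in size than TCTGGTA in the libraries labelled shARID1B.2 (-0.265). Hairpin sequences were not used here, and the part of the hairpins' own sequence in these differences was not tested.

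The sites of 9 of the 10 transcripts with the 8-base word and the largest falls are shown, and that of STC1 is not shown here. They were chosen after their values were seen, and each line gives 30 bases of the sense strand of the GENCODE 29 transcript, 5′ to 3′, with the 8-base word in capitals. All lie in the 3′ UTR and coordinates are those of GRCh38.
YWHAQ (chr2:9584988-9585017, minus strand): actaaaaatgtATCTGGTAtttaagtaatc
UGDH (chr4:39499652-39499681, minus strand): gatattagcatATCTGGTAattatgaatct
EDEM1 (chr3:5219521-5219550, plus strand): tctggacgtgaATCTGGTAaaaatatcaag
CA12 (chr15:63323815-63323844, minus strand): tagttagtatcATCTGGTAaaatagttaaa
ATP7A (chrX:78048201-78048230, plus strand): actggtcagagATCTGGTActtgtaagact
ATP7A (chrX:78050064-78050093, plus strand): gcagtccctccATCTGGTAtgagtaaccag
SMIM13 (chr6:11134863-11134892, plus strand): cactggtgcagATCTGGTAaacattaaagg
SH2B3 (chr12:111451148-111451177, plus strand): catatggctttATCTGGTAtaaatcttctg
REEP3 (chr10:63621245-63621274, plus strand): ttttgtgttgtATCTGGTAattaaataggc
ESYT1 (chr12:56144591-56144620, plus strand): actagaacttaATCTGGTActttacagttt

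YWHAQ, which encodes the 14-3-3 theta adaptor, had 30606, 29466 and 30487 in Control and 6381, 6313 and 6536 in the libraries labelled shARID1B.2 (-2.23, SE 0.018, limma adjusted p = 8.69e-30). Its 3′ UTR also held 2 of the single words. UGDH, which makes UDP-glucuronate for matrix glycans, went from 2236, 2076 and 2194 to 476, 490 and 482 (-2.16), and ATP7A, the copper pump, with 2 copies of the 8-base word, from 4766, 4627 and 4509 to 1161, 1016 and 1099 (-2.09). EDEM1 (-2.12), CA12 (-2.12), SMIM13 (-2.08), SH2B3 (-2.01), STC1 (-1.98), REEP3 (-1.90) and ESYT1 (-1.90) complete the 10 lowest.

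Their values in the other conditions varied. Against the shared Control, YWHAQ had log2 fold changes of -1.80 in the libraries labelled shARID1A.2 and of -0.20 to 0.06 in the other 4 silenced conditions. REEP3 had -1.89 in shARID1A.2 but also -1.95, -1.64 and -1.69 in shARID1A.4, shARID1B.3 and shARID1A/B.2.3. CA12 had -2.34 to -1.43 in the other conditions except shARID1A/B.2.3, where it had 0.29.

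Over all 11467 searched transcripts, 1927 held either word in the 3′ UTR. Of the 15 largest falls 9 have a coding transcript in GENCODE 29, and 0 of these held either word in the 3′ UTR, although LOXHD1 held 1 in its coding sequence. Of the 15 largest rises 12 have such a transcript and 4 held a word in the 3′ UTR, and the difference between these small sets was not tested. ARID1A held ATCTGGT once, in its coding sequence (chr1:26760861-26760867, bases 2297 to 2303 of a transcript of 8583), and neither word in its 3′ UTR. ARID1B held neither word anywhere in its transcript. The ARID1A window is shown because this gene is the one lowered most of the 2 targets, with the word in capitals and with an exon junction inside the 30 bases.
ARID1A: ttgcctgatctATCTGGTtcaatagatgac

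The libraries labelled shARID1B.2 and shARID1B.3 were then compared directly. In this contrast 66.0% of genes passed the test, 33.0% lower and 33.0% higher in the libraries labelled shARID1B.2, and 13.7% changed by at least 2-fold, 967 lower (5.20%) and 1575 higher (8.48%). These are shares as high as against Control, from libraries with low ARID1A in both conditions. ARID1A was 0.37 lower (SE 0.029, limma adjusted p = 3.31e-11) and ARID1B 0.28 lower in the libraries labelled shARID1B.2 on the log2 scale.

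The 8 largest falls in this contrast were VGF (-4.33), ZFPM2-AS1 (-4.22), SLC16A6 (-4.07, a monocarboxylate transporter), NPTX1 (-4.0, a synaptic pentraxin), LOXHD1 (-3.76), MARCOL (-3.68), PI15 (-3.67) and SERTM2 (-3.64). VGF was at 30655, 29358 and 25490 in the libraries labelled shARID1B.3, whereas Control lay at 4416 to 4669 and the libraries labelled shARID1B.2 at 1333 to 1532, so that the 2 conditions lay on opposite sides of Control. For SLC16A6 and NPTX1 the difference came mainly from high values in shARID1B.3, at 379 to 424 and 433 to 505, against 15.7 to 42.5 in Control for both genes.

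The 8 largest rises were BLOC1S5-TXNDC5 (6.19), COL26A1 (4.55), AC068547.1 (4.19), MT1E (4.12, a metallothionein), AC012184.2 (3.93), SULF2 (3.63, a sulphatase of heparan sulphate), LINC01522 (3.63) and PRLR (3.51). SULF2 was at 1951, 2131 and 2073 in the libraries labelled shARID1B.2, 167, 162 and 163 in those labelled shARID1B.3 and 904, 866 and 885 in Control. COL26A1 likewise had 532 to 578, 20.7 to 25.9 and 220 to 234. BLOC1S5-TXNDC5 is a read-through transcript that overlaps its parent genes, with values of 0, 0 and 146 in shARID1B.3 and an adjusted p of 0.447 by limma against Control, and DESeq2 did not call it in the direct contrast.

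Several lists differed between the 2 conditions. The ATF4 list was lower in 28 of 32 cases, 17 by at least 2-fold, with a median difference of -1.04. PSAT1 was at 15314, 16070 and 15667 in the libraries labelled shARID1B.3 and at 4301, 4513 and 4246 in those labelled shARID1B.2. Interferon-stimulated genes were higher in 23 of 35 cases, 14 by at least 2-fold, and lower in 3 (median 0.72).

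Matrix genes were higher in 25 of 42 cases and lower in 6 (median 0.44), and ion channels higher in 34 of 52 and lower in 9 (median 0.54). DNA replication genes were lower in 35 of 40 cases (median -0.42) and mitotic genes in 28 of 40 (median -0.26). Ribosomal proteins had a median difference of -0.00, with 24 of 75 higher and 19 lower, and integrins one of 0.13, with 8 of 21 higher and 5 lower. Over all tested genes the median of this contrast was 0.01.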

How the data were processed

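RNA-Seq libraries (TruSeq Stranded mRNA) of SK-N-BE(2) cells were processed by the authors, whose notes per the labels list STAR 2.5.3a, RSEM 1.3.0, DESeq2 1.26.0 and GRCh38, with no role stated. The values the authors deposited are a signal for every gene in each library, namely its reads over that library's size factor (0.841 to 1.294). Dividing out the step of each column gave whole reads for 100% of values within 0.01 read, at 27954334 to 41077638 reads per library over 60728 genes. The annotation is not given in the sources used here. Whether reads shared by near-identical genes were split is not known for single genes. Another 3 deposited tables hold the authors' contrasts of silenced and control cells (log2 fold changes and p-values) and were not used.

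Groups follow the labels. Genes were kept by edgeR's filterByExpr on recovered reads (18584 genes). The main test was limma 3.58.1 with a trend on log2(value + 1), fitted to all 21 libraries in 7 conditions with 14 residual degrees of freedom. Adjustment was Benjamini-Hochberg over all tested genes, with calls at 0.05 and, where stated, at least 2-fold. Fold changes of low genes are understated by the pseudocount. Replicates differed by more than counting noise (chi-square per degree of freedom 1.80 to 2.39). P-values measure the spread between libraries of 1 experiment.

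The members, gene lists and tests were chosen with earlier results of these data known, so that none is independent support. Besides list members and the targeted genes, the text names the 15 largest falls and rises against Control, and the 8 against shARID1B.3, among genes with an adjusted p under 0.05, a 2-fold change, a mean of at least 50 in the higher condition and no overlap of replicates. Genes named for a 3′ UTR word were chosen after their values were seen. Gene identifiers were matched to GENCODE 29 without version (58541 matched) for GRCh38 coordinates and transcripts. Alternatives were edgeR 4.0.16 and DESeq2 1.42.0 on recovered reads, pseudocounts of 0.5 and 5, no filter (35892 genes), at least 10 reads in every library (14637 genes), scaling to total reads or upper quartile, a fit of the compared conditions only, a replicate block, and leaving out each library. Results on some genes are not reported here.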

Additional observations from a re-analysis of the deposited data

Results flagged for a closer look

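The effect against Control differed between the conditions labelled shARID1B.2 and shARID1B.3 for the following genes, by the direct limma contrast of the 2 conditions (values are log2 differences, shARID1B.2 minus shARID1B.3, with 3 libraries each). ARID1B, the gene both are named for, differed by -0.28 (adjusted p = 6.49e-11), with -0.21 and 0.07 against Control. Lower in the libraries labelled shARID1B.2 were VGF (-4.33), ZFPM2-AS1 (-4.22), SLC16A6 (-4.07), NPTX1 (-4.0), LOXHD1 (-3.76), MARCOL (-3.68), PI15 (-3.67) and SERTM2 (-3.64). VGF, LOXHD1, PI15, SERTM2 and ZFPM2-AS1 were below Control in the one condition and above it in the other. NPTX1 also had opposite signs (-0.38 and 3.61), but its call in the libraries labelled shARID1B.2 was lost in several alternatives. Higher were BLOC1S5-TXNDC5 (6.19), COL26A1 (4.55), AC068547.1 (4.19), MT1E (4.12), AC012184.2 (3.93), SULF2 (3.63), LINC01522 (3.63) and PRLR (3.51). COL26A1, MT1E and SULF2 were above Control in the libraries labelled shARID1B.2 and below it in those labelled shARID1B.3.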

How the results depend on the processing

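The count of genes called against Control (12189) stayed between 10895 and 12523 over the alternatives, with 12229 by edgeR and 11321 by DESeq2 on recovered reads, and ARID1A and ARID1B kept their direction and call in each. Requiring at least 10 reads in every library left 633 genes at least 2-fold lower and 481 higher against Control (main 952 and 1274), and 617 and 894 against shARID1B.3 (main 967 and 1575), with fewer genes tested. A pseudocount of 5 left 807 at least 2-fold higher against Control, as it shrinks low genes by construction. Leaving out 1 library gave 11567 to 11674 calls against Control, with 918 to 975 at least 2-fold lower and 1241 to 1286 higher, and 11674 to 11779 calls against shARID1B.3, with 939 to 1004 lower and 1532 to 1575 higher. It gave -1.74 to -1.70 for ARID1A, -0.22 to -0.20 for ARID1B and -0.246 to -0.237 for the mean difference of the 3′ UTR words (main -0.240). Same-numbered libraries of the 2 conditions had correlations of deviations of -0.043 to 0.039, and differently numbered ones of -0.028 to 0.054. No shared deviation by number was seen, but this cannot show whether same-numbered libraries were handled together. With the replicate block 12168 genes were called against Control and 12243 against shARID1B.3, 950 and 972 lower and 1271 and 1572 higher by 2-fold, and ARID1A, ARID1B and the words stayed at -1.72, -0.21 and -0.240. A block over only the 2 conditions compared, added later, gave 12063 calls.

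Of 3696 values of single genes under alternatives, 3668 kept direction and call. Direction reversed for RPS7 with scaling to total reads (0.036) or upper quartile (0.018), for the uncalled COL1A1 with these (0.119 and 0.101), with edgeR (0.01) and without shARID1B.2 replicate 1 (0.015), over a range of -0.048 to 0.015 with 1 library left out, and for the uncalled MARCOL without Control replicate 1 (-0.035, range to 1.192). AC005670.2 lost its call with DESeq2 (-2.77) and without shARID1B.2 replicate 2 (-2.33), and H2AC18 with DESeq2 (2.80). SLC16A6 (0.43) and NPTX1 (-0.38) lost their calls against Control with DESeq2, with edgeR and in both fits of only the conditions compared. SLC16A6 also lost its call without shARID1B.2 replicate 3, and NPTX1 with scaling to total reads. The cause of these changes was not tested.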

Other observations

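Changes of at least 2-fold differed by class of gene and by level. Of 14404 tested protein-coding genes 759 (5.27%) were at least 2-fold lower and 732 (5.08%) higher in the libraries labelled shARID1B.2, whereas of 2762 long non-coding RNAs 136 (4.92%) were lower and 439 (15.9%) higher. In 4 equal bins of mean normalised read count, rises made up 18.1% of the lowest, 7.21% and 1.57% of the next ones and 0.495% of the highest, while falls made up 6.48%, 5.75%, 4.15% and 4.11%. The libraries labelled shARID1B.2 also had more genes with a read, as given in the report, and the part of that in these rises was not tested.

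A few genes of cell types other than neuroblastoma changed. PTPRC, the CD45 phosphatase of blood cells, had 399, 406 and 426 in Control and 108, 118 and 104 in the libraries labelled shARID1B.2 (log2 fold change -1.89, SE 0.097). KRT18 rose by 1.45 and KRT19 fell by 1.64, both keratins of simple epithelia, from Control means of 26 and 51. PDGFRB, a receptor of mesenchymal cells, fell by 0.74.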
